A study of Mus musculus with 8 samples.

Results

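Radial glia identity genes were examined in the RNA of fetal mouse brains at E15.5, after exposure of the dam to chronic unpredictable mild stress (CUMS) or without it. The set was chosen by gene symbol and holds 10 of the 54752 gene identifiers counted: the transcription factors *Sox2*, *Pax6*, *Sox9* and *Emx2*, the homeodomain-only cofactor *Hopx*, the intermediate filament genes *Nes* and *Vim*, the lipid-binding protein gene *Fabp7*, the glutamate transporter gene *Slc1a3* and the receptor phosphatase gene *Ptprz1*. All 10 passed the filter on low counts and were among the 17865 genes tested. The mice were wild type, labelled C57BL/6 and named C57BL/6Slac in the study's methods, and each library came from 1 brain. In the control group, whose dams stayed in the home cage, the brains were those of females F36 and F37 and males M30 and M31. In the stress group, whose dams received a changing schedule of mild stressors from E5.5 to E14.5, they were those of females F34 and F35 and males M28 and M29. By the study's sample sheet, each group is a single litter, which means that an effect of litter and one of CUMS cannot be told apart, and every p-value below measures the spread among littermates. The sheet also names the tissue of these libraries as half_whole_brain, while the study's methods describe whole brains that include forebrain, midbrain and hindbrain.

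Radial glia are the neural stem cells of the embryonic brain. Their cell bodies line the ventricle, where they divide, and a long process reaches the outer surface and guides newborn neurons as they migrate. They renew themselves and give rise to neurons, in the cortex mostly through intermediate progenitors that express *Eomes*, and later to astrocytes and other glia. In these libraries, made from whole tissue, fewer cells of a type and less RNA per cell cannot be told apart.

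The libraries held between 25320109 and 29105710 counts. Mitochondrial genes took 2.1% to 2.31% of them, and 26944 to 27366 genes had at least 1 count. *Xist*, the RNA that coats the inactive X chromosome, had 30879 to 35294 counts in the 4 females and 13 to 22 in the 4 males, and *Ddx3y*, a gene of the Y chromosome, had 0 counts in each female and 1503 to 1617 in each male, as labelled. Littermates differed by more than sampling noise, so each library was counted as 1 replicate. The chi-square per gene was 1.99 to 3.01 between littermates of the same sex. Between a female and a male littermate it was 4.09 to 6.30, with genes of the sex chromosomes included. The common biological coefficient of variation over the 8 brains was 3.14%.

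Of the 10 identity genes, *Sox2*, *Pax6*, *Emx2*, *Nes* and *Vim* were up-regulated in the stressed brains by 8.36% to 16.2% of the control mean. No member was called lower, and *Sox9*, *Hopx*, *Fabp7*, *Slc1a3* and *Ptprz1* did not pass the test. Calls were made at an adjusted p under 0.05 (edgeR's quasi-likelihood test, sex and condition in the model, Benjamini-Hochberg over all genes tested). The 5 of 10 members called higher stand beside 6.49% of all genes tested called higher, and the 0 members called lower beside 7.27% called lower. The members were chosen with earlier results of these data known, so the counts are a description and not an independent check. The shares cover tested genes of every level and are not matched to the levels of the members. Without adjustment, 7 members had a p under 0.05, of which 1, *Ptprz1*, was lower in stress, beside 26.9% of all genes tested at that unadjusted threshold. DESeq2's Wald test called 4 members higher and 0 lower, losing *Nes*. Expression is given as CPM, counts per 1000000 of the scaled library total. The median Log2FC (stress vs. control) was 0.10 over the members and 0.0015 over all genes tested.

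**Figure D1:**
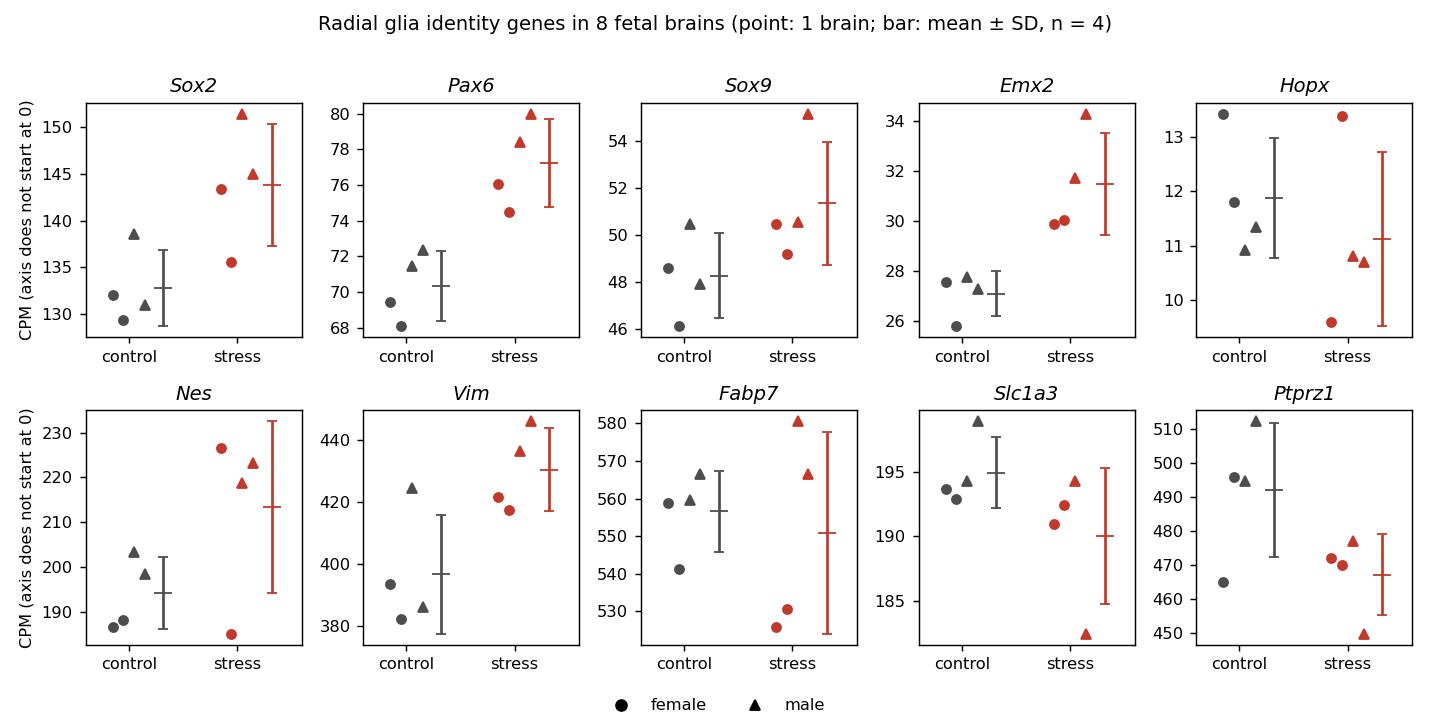
Expression of each of the 10 identity genes in each of the 8 brains, in CPM on axes that do not start at 0. Circles are females, triangles are males, and the bar beside each group is the mean ± SD of 4 brains. *Pax6* and *Emx2* have all 4 stressed brains above all 4 control brains.

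The promoters of members that moved and of members that did not are shown here with their CCAAT boxes, a short element that binds the factor NF-Y and is common in promoters of genes expressed in dividing cells. The letters CCAAT were searched on both strands, so that ATTGG on the printed strand is CCAAT on the other. The windows searched run from 250 bases before to 50 bases after each gene start in RefSeq (GRCm38.p6, which has the coordinates of mm10). CCAAT was present in 12289 of all 32851 windows, or 37.4%. Of the 9 members with a window, 7 held it in at least 1: *Sox2*, *Pax6*, *Emx2*, *Hopx*, *Vim*, *Fabp7* and *Slc1a3*, but not *Nes* or *Ptprz1*. *Pax6* and *Hopx* have more than 1 window, and counted by window 8 of 11 held it. *Sox9* was not in the table used. The bases upstream of the start in both RefSeq and GENCODE are printed for *Sox2* (chr3:34649745-34649994) and *Pax6* (chr2:105668646-105668895), called members with 1 box each, for *Nes* (chr3:87970843-87971077), a called member with none, and for *Fabp7* (chr10:57784673-57784880), an uncalled member with 2. All 4 are on the plus strand, written 5′ to 3′, with the box in capitals.
Sox2: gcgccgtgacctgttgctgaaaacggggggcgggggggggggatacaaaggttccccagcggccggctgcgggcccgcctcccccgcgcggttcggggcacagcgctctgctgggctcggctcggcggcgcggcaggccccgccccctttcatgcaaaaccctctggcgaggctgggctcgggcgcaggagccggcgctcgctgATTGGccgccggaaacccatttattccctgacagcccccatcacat
Pax6: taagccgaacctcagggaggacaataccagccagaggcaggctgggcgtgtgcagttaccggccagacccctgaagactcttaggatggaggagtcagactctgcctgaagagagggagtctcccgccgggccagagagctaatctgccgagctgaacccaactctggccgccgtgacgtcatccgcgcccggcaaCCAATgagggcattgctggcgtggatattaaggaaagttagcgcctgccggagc
Nes: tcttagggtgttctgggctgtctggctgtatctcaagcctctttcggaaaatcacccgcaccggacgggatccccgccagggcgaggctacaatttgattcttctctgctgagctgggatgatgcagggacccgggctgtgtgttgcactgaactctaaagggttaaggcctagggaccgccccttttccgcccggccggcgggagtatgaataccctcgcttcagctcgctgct
Fabp7: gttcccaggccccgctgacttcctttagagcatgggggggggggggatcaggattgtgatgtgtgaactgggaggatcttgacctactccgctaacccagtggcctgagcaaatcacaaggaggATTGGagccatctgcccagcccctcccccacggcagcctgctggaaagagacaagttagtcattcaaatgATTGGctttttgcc

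The first base of the box on the plus strand lay at position -46 from the RefSeq start in *Sox2* and at -54 in *Pax6*. In *Fabp7* the boxes lay at -56 and -126. The box was found in windows of members that were called and of members that were not. It is a match of letters, and binding was not measured. Of 8 other motifs searched on both strands in the same windows, GGGCGG was found in 5 of the 9 members against 35.7% of all windows and ACAAT in 5 against 31.02%. TTTGAA (17.9% of all windows), ACAAAG (18.7%), TGGGAA (25.6%) and TATAAA (13.6%) were each found in 2 members and 2 of 11 windows. CACGTG (7.15%) and CAGCTG (16.3%) were each found in 1 member, *Hopx*, and 1 of 11 windows.

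*Sox2* encodes the transcription factor that maintains the neural stem cell state. Its gene (ENSMUSG00000074637.7) lies on mm10 at chr3:34650405-34652461, inside the span of the longer RNA gene *Sox2ot*, with which it shares no exon. In the control brains it stood at 132 CPM in F36, 129 in F37, 139 in M30 and 131 in M31, and in the stressed brains at 143 in F34, 136 in F35, 151 in M28 and 145 in M29. Of the stressed brains, 3 were above every control brain, and only F35 lay below a control brain, the male M30. The mean rose from 133 ± 4.05 CPM to 144 ± 6.52 CPM (SD, n = 4), with a Log2FC of 0.12 (SE 0.03) and an adjusted p of 0.0104 in edgeR's test. It was called in 7 of the 8 fits that each left out 1 brain, and without stress M28 the adjusted p was 0.0570. *Sox2ot* had 1334 to 1599 counts and a Log2FC of 0.06 (SE 0.04, edgeR's adjusted p = 0.331).

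*Pax6* encodes a paired-box factor of cortical radial glia that drives neurogenesis. It lies at chr2:105668900-105697364 (ENSMUSG00000027168.21). Its values were 69.4, 68.1, 71.5 and 72.4 CPM in control F36, F37, M30 and M31, and 76.0, 74.5, 78.4 and 80.01 CPM in stress F34, F35, M28 and M29. Every stressed brain was above every control brain. *Pax6* rose by 9.81%, from 70.3 ± 1.95 CPM to 77.2 ± 2.46 CPM (SD, n = 4), with a Log2FC of 0.14 (SE 0.03) and an adjusted p of 0.00384 in edgeR's test, and it was called in all 8 fits that left out 1 brain. The exact permutation test of log2 CPM, two-sided, gave p = 0.0286, the smallest that 4 brains against 4 can give.

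*Emx2*, a homeobox factor of the dorsal telencephalon, lies at chr19:59458372-59465357 (ENSMUSG00000043969.4) and had the largest Log2FC of the 10 members. In control F36, F37, M30 and M31 it was 27.6, 25.8, 27.8 and 27.3 CPM, and in stress F34, F35, M28 and M29 it was 29.9, 30.1, 31.7 and 34.3 CPM. The groups did not overlap, and the males M28 and M29 were the highest. The mean rose by 16.2%, from 27.1 ± 0.89 CPM to 31.5 ± 2.04 CPM (SD, n = 4), with a Log2FC of 0.22 (SE 0.04) and an adjusted p of 0.00164 in edgeR's test. It was called in all 8 fits that left out 1 brain, and the exact permutation test gave p = 0.0286, two-sided. The counting did not use strand, and 8.79% of the exon bases of *Emx2* are shared with *Emx2os* on the opposite strand. *Emx2os* had 132 to 162 counts, with a Log2FC of 0.09 (SE 0.09, edgeR's adjusted p = 0.564), so reads of the pair in the shared bases cannot be told apart.

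*Pax6* and *Emx2* were the 2 members of 10 whose groups did not overlap over the 8 brains, both with stress above, beside 8.2% of all genes tested. For the other called members the exact permutation test of log2 CPM, two-sided, gave p = 0.0571 (*Sox2*), 0.0857 (*Vim*) and 0.143 (*Nes*). For the uncalled members it gave p from 0.0571 (*Sox9*) to 0.743 (*Fabp7*). The exact test does not account for sex. When females were compared with females and males with males, *Sox2*, *Pax6*, *Sox9*, *Emx2* and *Vim* did not overlap in either sex, with stress above, beside 11.5% of all genes tested.

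*Sox9*, the transcription factor that precedes gliogenesis and also marks stem cells earlier, lies at chr11:112782224-112787760 (ENSMUSG00000000567.5). It was 48.6, 46.1, 50.5 and 47.9 CPM in control F36, F37, M30 and M31 and 50.5, 49.2, 50.6 and 55.2 CPM in stress F34, F35, M28 and M29. The upper control brain, M30, lay at the level of stress F34 and M28, and M29 stood above the rest. The means were 48.3 ± 1.80 CPM and 51.4 ± 2.62 CPM (SD, n = 4). The Log2FC of 0.09 (SE 0.04, interval of 2 SE 0.01 to 0.17) had an adjusted p of 0.132 in edgeR's test and was called in none of the 8 fits that left out 1 brain.

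*Hopx*, a cofactor without DNA binding of its own that is used as a marker of radial glia, was the least abundant member by CPM and the most variable, with a coefficient of variation of 11.6% over the 8 brains. It lies on the minus strand at chr5:77086988-77115121 (ENSMUSG00000059325.14). Control F36, F37, M30 and M31 had 13.4, 11.8, 10.9 and 11.4 CPM, and stress F34, F35, M28 and M29 had 9.60, 13.4, 10.8 and 10.7 CPM. The lowest and one of the highest values were those of the 2 stressed females. The Log2FC was -0.10 (SE 0.08, interval of 2 SE -0.26 to 0.07, edgeR's adjusted p = 0.494), and without stress F34 it was 0.0056. *Hopx* shares 27.2% of its exon bases with *Hopxos* on the opposite strand, which had 4 to 10 counts per brain against 265 to 369 for *Hopx*.

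The filament genes *Nes* and *Vim* encode nestin and vimentin, which form the cytoskeleton of the radial process. *Nes* lies at chr3:87971078-87980451 (ENSMUSG00000004891.16). It was 187, 188, 203 and 198 CPM in control F36, F37, M30 and M31 and 227, 185, 219 and 223 CPM in stress F34, F35, M28 and M29. The stressed group held both the highest brain, F34, and the lowest brain, F35, of all 8. The mean was 194 ± 8.05 CPM in control and 213 ± 19.2 CPM in stress (SD, n = 4), with a Log2FC of 0.14 (SE 0.04) and an adjusted p of 0.0185 in edgeR's test. *Nes* was the member whose call depended most on single brains and settings: it was called in 5 of the 8 fits that left out 1 brain, with edgeR's adjusted p at 0.136 without stress F34, 0.0523 without stress M29 and 0.0508 without control F37. The Log2FC was 0.08 without F34 and 0.19 without stress F35, but 0.13 without M29 and 0.14 without F37. DESeq2 gave a Log2FC of 0.14 and an adjusted p of 0.204.

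*Vim*, at chr2:13573927-13582826 (ENSMUSG00000026728.9), was 394, 382, 424 and 386 CPM in control F36, F37, M30 and M31 and 421, 417, 436 and 446 CPM in stress F34, F35, M28 and M29. Only the control male M30 overlapped the stressed brains. The mean rose by 8.46%, from 397 ± 19.1 CPM to 430 ± 13.3 CPM (SD, n = 4), with a Log2FC of 0.12 (SE 0.03) and an adjusted p of 0.00643 in edgeR's test, and it was called in all 8 fits that left out 1 brain. Vimentin is also made by mesenchymal and endothelial cells. Among 9 meningeal and mesenchymal markers tested, 3 were higher and 1 lower, and their summed level was 48.8 to 59.3 CPM in control and 48.0 to 89.6 CPM in stress, highest in M28. Without M28, *Vim* had an adjusted p of 0.0149 in edgeR's test, but a fit without 1 brain does not test cell makeup. The part of these cells in the *Vim* values was not tested.

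The remaining members act in metabolism and signalling. *Fabp7*, which encodes the brain lipid-binding protein of radial glia, lies at chr10:57784881-57788450 (ENSMUSG00000019874.11). It was 559, 541, 560 and 567 CPM in control F36, F37, M30 and M31 and 526, 531, 581 and 567 CPM in stress F34, F35, M28 and M29. The stressed females were the lowest brains and the stressed male M28 the highest. The means were 557 ± 10.8 CPM and 551 ± 26.9 CPM (SD, n = 4), with a Log2FC of -0.02 (SE 0.03, interval of 2 SE -0.07 to 0.04, edgeR's adjusted p = 0.760).

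*Slc1a3* encodes GLAST, the glutamate transporter of radial glia and astrocytes, and lies on the minus strand at chr15:8634124-8710764 (ENSMUSG00000005360.14). It varied least of the 10 members, with a coefficient of variation of 2.42%. Its values were 194, 193, 194 and 199 CPM in control F36, F37, M30 and M31 and 191, 192, 194 and 182 CPM in stress F34, F35, M28 and M29. Apart from M29, which was the lowest, the brains lay close together. The Log2FC was -0.04 (SE 0.03, interval of 2 SE -0.09 to 0.02) with an adjusted p of 0.437 in edgeR's test.

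*Ptprz1* encodes a receptor-type tyrosine phosphatase and proteoglycan of the radial glia surface that binds pleiotrophin and midkine. It lies at chr6:22875502-23052916 (ENSMUSG00000068748.7). Control F36, F37, M30 and M31 had 465, 496, 495 and 512 CPM, and stress F34, F35, M28 and M29 had 472, 470, 477 and 450 CPM. Without control F36, every stressed brain would lie below every control brain. The means were 492 ± 19.7 CPM and 467 ± 11.97 CPM (SD, n = 4), with a Log2FC of -0.07 (SE 0.03) and an adjusted p of 0.0937 in edgeR's test. The call was made in 1 of the 8 fits that left out 1 brain, the one without control F36 (Log2FC -0.10, edgeR's adjusted p = 0.0251), and with no filter on low counts (edgeR's adjusted p = 0.0302).

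**Figure D2:**
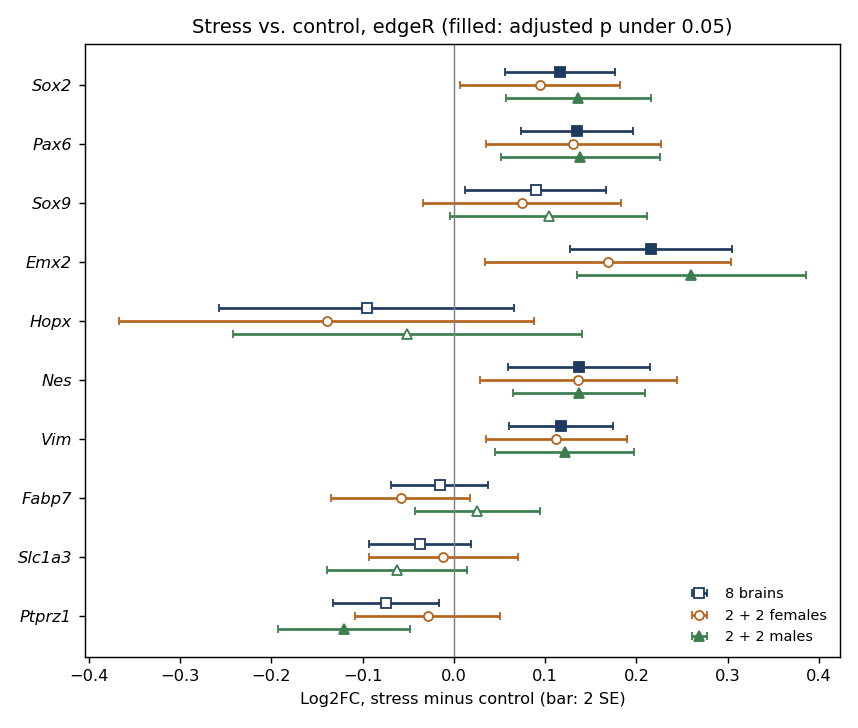
Log2FC (stress minus control) of each identity gene in edgeR's test over the 8 brains (squares), the 4 females (circles) and the 4 males (triangles). Bars are 2 SE to each side, and filled symbols had an adjusted p under 0.05. *Emx2* has the largest Log2FC over the 8 brains, 0.22, and *Hopx* the widest bars.

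Levels were compared between genes as RPKM, the CPM divided by the length of the gene's exons in kilobases. *Fabp7* was the most abundant member at 443 ± 15.4 RPKM (SD over 8 brains), above 99.8% of the genes tested. *Vim* followed at 87.2 ± 4.96 RPKM and *Sox2* at 67.2 ± 3.78 RPKM. The ranges of these 3 genes over the 8 brains did not overlap with each other or with the next. *Ptprz1* and *Nes* came next, at 33.7 ± 1.41 and 31.8 ± 2.66 RPKM, and their ranges overlapped. *Slc1a3* stood apart from both neighbours at 22.5 ± 0.55 RPKM. The transcription factors *Sox9* (12.05 ± 0.64 RPKM) and *Emx2* (9.76 ± 0.92 RPKM), then *Hopx* (7.59 ± 0.88 RPKM) and *Pax6* (6.31 ± 0.36 RPKM), closed the order, each overlapping the next. These lengths count every annotated exon, which for *Pax6* came to 11694 bases and for *Sox2* to 2057. *Pax6* was still above 59.3% of the genes tested.

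Whether the members respond differently in females and males was asked with the interaction of sex and condition over the 8 brains. edgeR called 0 of the 10 members, as did DESeq2, and 0 had an unadjusted p under 0.05, while 1 of the 17865 genes (0.0056%) was called. For *Sox2*, *Pax6*, *Nes* and *Vim* the Log2FC of the females and the males, fitted alone, lay close to each other, at 0.09 and 0.14, 0.13 and 0.14, 0.14 and 0.14, and 0.11 and 0.12. *Emx2* had 0.17 in females and 0.26 in males, with an interaction of -0.09 (SE 0.09, females minus males). In the 4 females alone 0 members were called by edgeR or DESeq2, beside 3.91% of the genes tested called by edgeR. At an unadjusted p under 0.05 there were 5 members, beside 17.7% of the genes tested. In the 4 males alone 6 members were called by edgeR, *Sox2*, *Pax6*, *Emx2*, *Nes* and *Vim* higher and *Ptprz1* lower, beside 3.68% of the genes tested called higher and 4.81% lower. DESeq2 called 0 members in the males, and so did edgeR without the filter on low counts. The male Log2FC of *Ptprz1* was -0.12 (SE 0.04, edgeR's adjusted p = 0.0326) and the female one -0.03 (SE 0.04), and their difference did not pass the test (interaction 0.09, SE 0.05, edgeR's adjusted p = 0.833).

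Between the sexes, edgeR and DESeq2 each called 0 members, and edgeR called 16 of all genes tested (0.0896%). Of the 10 members, 6 had an unadjusted p under 0.05, beside 5.91% of all genes tested, and all 6 were lower in females: *Nes* with a Log2FC (female minus male) of -0.10, *Emx2* of -0.09, *Fabp7* of -0.08 and *Sox2*, *Pax6* and *Vim* of -0.07 each. None passed the adjustment, with edgeR's adjusted p between 0.709 and 0.841.

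Ratios of 2 members within a brain do not depend on the scaling of the libraries. All 45 pairs were compared, each by the exact permutation test of the log2 ratio over the 8 brains, two-sided and unadjusted. In 12 of the 45 pairs the groups did not overlap, a share close to the 21% of all pairs of genes with a mean of at least 5 CPM, and nothing about the members is read from the count. Every pair without overlap has an exact permutation p of 0.0286 by construction. Sorted by the calls above, which come from the same contrast, they were 10 of the 25 pairs of 1 called and 1 uncalled member, 1 of the 10 pairs of called members and 1 of the 10 pairs of uncalled members. The following pairs are given as a description. The ratio of *Emx2* to *Ptprz1* had the largest difference among them, from a log2 ratio of -4.18 ± 0.08 in control to -3.89 ± 0.12 in stress (SD, n = 4). The ratio of *Pax6* to *Slc1a3* went from -1.47 ± 0.03 to -1.30 ± 0.08, and that of *Sox2* to *Fabp7* from -2.07 ± 0.04 to -1.94 ± 0.04 (SD, n = 4).

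The pair of called members was *Emx2* to *Vim*, with a difference of 0.10 in log2 ratio. The pair of uncalled members was *Sox9* to *Ptprz1*, with a difference of 0.16. *Pax6* to *Nes* and *Sox2* to *Vim* differed by 0.0022 and -0.0027 between the groups (exact permutation p = 0.971 and 0.886). The ratio of *Hopx* to *Nes* covered a range in the stressed group that took in the control group, with the highest value in stress F35 and the lowest in stress F34.

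**Figure D3:**
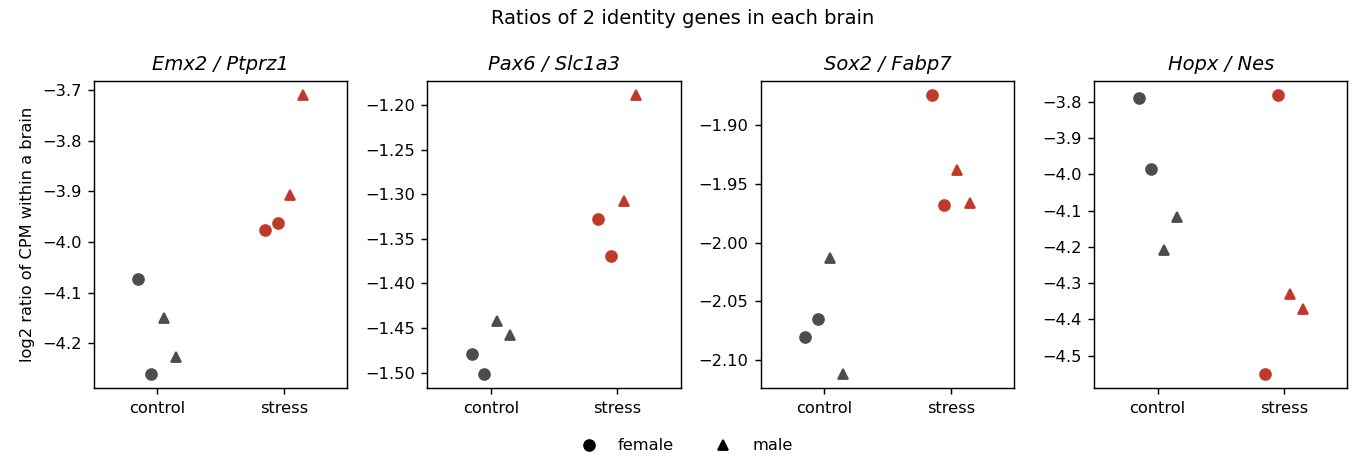
Log2 ratio of the CPM of 2 identity genes in each of the 8 brains, with females as circles and males as triangles, on axes that do not start at 0. The ratios *Emx2* / *Ptprz1*, *Pax6* / *Slc1a3* and *Sox2* / *Fabp7* are higher in all 4 stressed brains than in all 4 control brains, and *Hopx* / *Nes* overlaps.

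The members also differed in how they varied from brain to brain. Pearson's r of log2 CPM over the 8 brains is given as a description, because the 8 points share 2 litters and 2 sexes, and the value within sex and condition, after the mean of each of these groups was subtracted, is given beside it. Between called members r ranged from 0.69 to 0.96 over 10 pairs, with a median of 0.85. Within sex and condition it ranged from -0.14 to 0.65, with a median of 0.35. A shared difference between the groups raises r over 8 brains for called members. The values within rest on 2 brains per sex and condition. *Pax6* and *Emx2* had 0.96 (0.65 within), and *Sox2* and *Vim* 0.91 (0.59 within). *Sox2* had 0.87 with *Pax6* (0.0018 within) and 0.83 with *Emx2* (-0.14 within). *Sox9*, which was not called, followed *Emx2* with 0.90 (0.91 within). *Slc1a3* and *Ptprz1* went together with 0.82 (0.66 within), and *Ptprz1* ran against *Emx2* with -0.74 (-0.97 within). *Nes* and *Hopx* were opposite in the same brains, with -0.90 (-0.94 within).

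**Figure D4:**
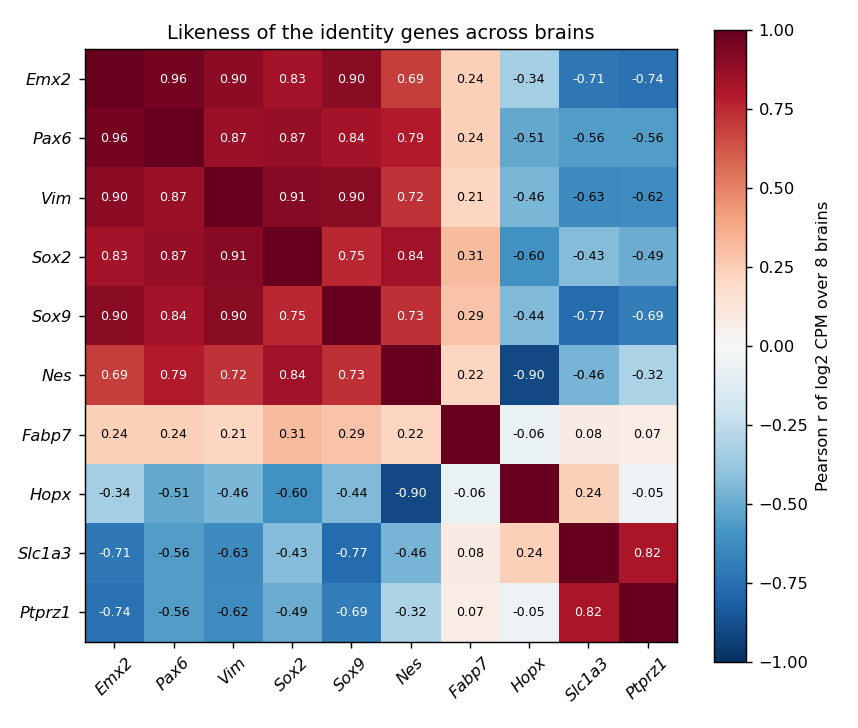
Pearson's r of log2 CPM over 8 brains for each pair of the 10 identity genes, from -1 (blue) to 1 (red). *Emx2*, *Pax6*, *Vim*, *Sox2*, *Sox9* and *Nes* form a block of positive values, and *Slc1a3* and *Ptprz1* go with each other and against that block.

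For each member the genes with the most similar pattern were found among 11961 genes with a mean of at least 5 CPM, by the same r over 8 brains. They were *Dusp18* (0.98) and *Zeb1* (0.97) for *Sox2*, *Nhlh1* (0.99) and *Nek2* (0.98) for *Pax6*, and *Zmat2* (0.98) and *Hnrnph3* (0.96) for *Sox9*. For *Emx2* they were *Ndc80* (0.99) and *Ptma* (0.99), and for *Hopx* *Mafa* (0.98) and *Skap2* (0.95). *Nes* went with *Trp53bp2* (0.99) and *Bcl7a* (0.98), and *Vim* with *Pif1* (0.99) and *Hnrnph2* (0.98). For *Fabp7*, *Slc1a3* and *Ptprz1* the nearest were *Swi5* (0.97) and *Zfp35* (0.95), *Gm9866* (0.98) and *Ccdc141* (0.97), and *Nalcn* (0.98) and *Enpp5* (0.97). With 8 points and so many genes compared, values this high are found for every member.

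Other genes of radial glia were read from the same fit. The lists here and below, like the members, were chosen with earlier results of these data known. Their counts of calls are therefore a description and not an independent check. Over all genes tested, 6.49% were called higher and 7.27% lower. Of 21 transcription factors and effectors of the Notch and Hedgehog pathways in radial glia, 14 were called higher in stress and 0 lower, with a median Log2FC of 0.14. The largest rises were those of *Gli3*, a transcription factor of the Hedgehog pathway (Log2FC 0.31, SE 0.04, edgeR's adjusted p = 5.07e-05), and *Nr2e1*, which encodes the stem cell receptor Tlx (0.25, SE 0.04, edgeR's adjusted p = 0.000296). Of the Notch pathway genes, *Notch1* was called (0.13, SE 0.04, edgeR's adjusted p = 0.0399), but not by DESeq2 (adjusted p = 0.0749). *Notch2* was not called, nor were *Hes1* (-0.08, SE 0.08) and *Hes5* (-0.10, SE 0.08). Of 24 surface, matrix and metabolic genes of radial glia, 2 were higher and 1 lower, with a median Log2FC of -0.0061. The growth factor receptor gene *Fgfr3* (0.21, SE 0.04, edgeR's adjusted p = 0.000662) and *Pdpn*, which encodes podoplanin (0.15, SE 0.05, edgeR's adjusted p = 0.0259), rose, and the proteoglycan gene *Cspg5* fell by 0.22 on the log2 scale (SE 0.03, edgeR's adjusted p = 1.28e-05). *Pdpn* was not called by DESeq2 (adjusted p = 0.0708). Among the members, 3 of the 4 transcription factors and both filament genes were called, and the cofactor, the lipid-binding protein, the transporter and the phosphatase were not.

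**Figure D5:**
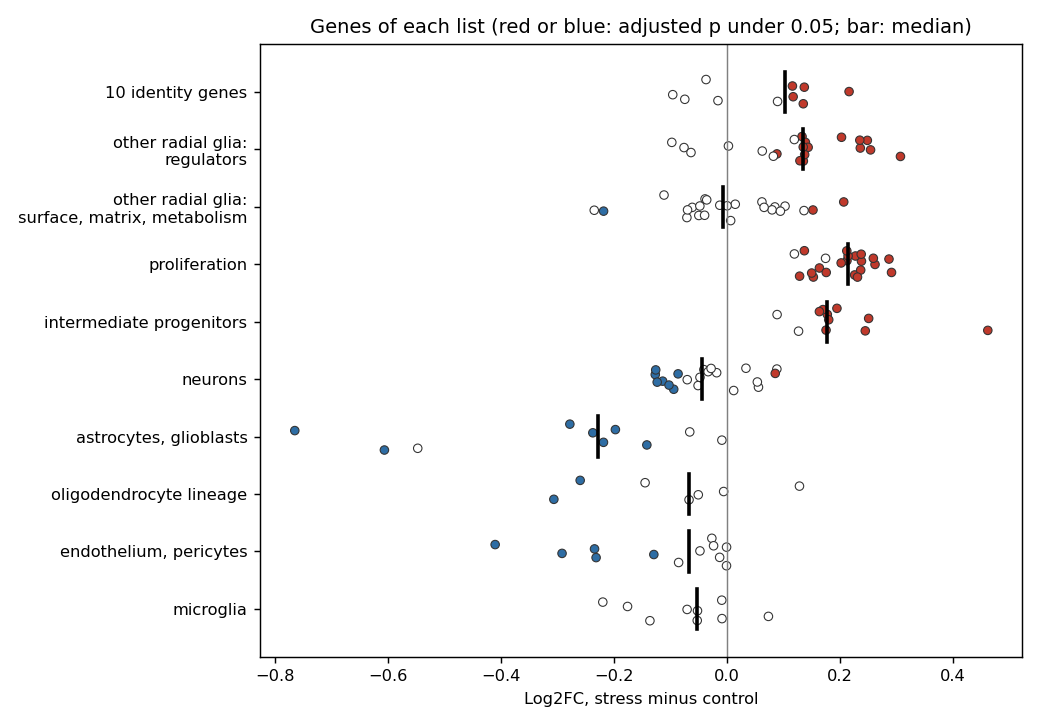
Log2FC (stress minus control) of the tested genes of some of the lists in edgeR's test over 8 brains, 1 point per gene, with the median as a bar. Red and blue points had an adjusted p under 0.05. The medians shown run from 0.21 for proliferation, 0.18 for intermediate progenitors and 0.14 for radial glia regulators to -0.23 for astrocytes and glioblasts. The list of meninges and mesenchyme, with a median of 0.39, is not shown.

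Of 22 family relatives of the members, some of which stand on other lists too, 4 were called higher and 6 lower. *Emx1*, the partner of *Emx2* in the dorsal telencephalon, rose with a Log2FC of 0.25 (SE 0.05, edgeR's adjusted p = 0.00241), and *Sox3*, of the same subgroup as *Sox2*, with 0.24 (SE 0.06, edgeR's adjusted p = 0.0112). Among the filament relatives of *Nes* and *Vim*, the astrocyte gene *Gfap* fell by 0.76 (SE 0.22, edgeR's adjusted p = 0.0231) and the neurofilament gene *Nefh* by 0.24 (SE 0.08, edgeR's adjusted p = 0.0361), both on the log2 scale and neither called by DESeq2. Each was called in 2 of the 8 fits that left out 1 brain. *Gfap* was low, at 1.12 ± 0.21 CPM in control and 0.66 ± 0.18 CPM in stress (SD, n = 4). Of 7 ligands and partners of *Ptprz1*, the ligand midkine, *Mdk*, rose with a Log2FC of 0.23 (SE 0.04, edgeR's adjusted p = 0.000315) and the neuronal adhesion partner *Cntn1* fell by 0.28 on the log2 scale (SE 0.04, edgeR's adjusted p = 0.000111), while 5 were not called.

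Of 9 transcription factors of the telencephalon, where *Emx2* is expressed, 5 were higher in stress and 0 lower, led by *Emx1* and *Lhx2* (Log2FC 0.14, SE 0.03, edgeR's adjusted p = 0.00317). Their summed level was 857 to 901 CPM in control and 914 to 952 CPM in stress. Of 12 transcription factors of the midbrain and hindbrain, 2 were higher and 0 lower, *Pax5* (0.24, SE 0.06, edgeR's adjusted p = 0.00839) and *Gata3* (0.19, SE 0.06, edgeR's adjusted p = 0.0265). *Gata3* was not called by DESeq2 (adjusted p = 0.0728) and was called in 3 of the 8 fits that left out 1 brain. The sums of the 12 genes overlapped, at 125 to 144 CPM and 133 to 153 CPM. The part of the regional makeup of the samples in the members' values was not tested.

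Genes of dividing cells were read in the same way. Of 22 proliferation genes, 20 were called higher and 0 lower, with a median Log2FC of 0.21. The study itself names *Ccna2*, *Ccnb1*, *Ccnb2* and *Cdk1*, all on this list, among its up-regulated genes. *Rrm2*, a subunit of the enzyme that makes deoxyribonucleotides, rose with 0.29 (SE 0.03, edgeR's adjusted p = 4.71e-06) and the chromatin protein gene *Hmgb2* with 0.29 (SE 0.04, edgeR's adjusted p = 2.74e-05). The summed level of the 22 genes was 1295 to 1379 CPM in control and 1454 to 1637 CPM in stress, without overlap. Of 11 genes of intermediate progenitors, 9 were higher and 0 lower, with a median Log2FC of 0.18, and the sums were 555 to 605 CPM and 621 to 685 CPM. *Eomes* rose with a Log2FC of 0.25 (SE 0.03, edgeR's adjusted p = 8.40e-06) and the proneural gene *Neurog1* with 0.46 (SE 0.14, edgeR's adjusted p = 0.0247, DESeq2's adjusted p = 0.0699). The most abundant were *Rcor2*, at 113 ± 4.03 CPM in control and 130 ± 4.24 CPM in stress (SD, n = 4), and *Insm1*, at 114 ± 3.64 and 121 ± 4.33 CPM, which was not called. Of 20 neuronal genes, 1 was higher, the filament gene *Ina*, and 7 were lower, with a median Log2FC of -0.04 and sums of 12106 to 12377 CPM in control and 11844 to 12326 CPM in stress. *Rbfox3*, which encodes NeuN, and *Snap25*, of the synaptic release machinery, each fell by 0.13 on the log2 scale (edgeR's adjusted p = 0.00880 and 0.0462), and *Snap25* was not called by DESeq2. Of the most abundant neuronal genes, the tubulin gene *Tubb3* was at 1807 ± 39.1 and 1784 ± 3.13 CPM and the tau gene *Mapt* at 1765 ± 39.3 and 1644 ± 55.7 CPM (SD, n = 4).

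Cells that come from radial glia or share their markers were checked too, since members of the set, called or not, can also be expressed in other cells. Of 12 astrocyte and glioblast genes, 10 were tested, 0 were higher and 7 lower, with a median Log2FC of -0.23. Their summed level was 565 to 585 CPM in control and 486 to 533 CPM in stress, without overlap. Besides *Gfap*, the water channel gene *Aqp4* fell by 0.61 on the log2 scale (SE 0.10, edgeR's adjusted p = 0.000294). *Sparcl1*, the most abundant, fell by 0.24 (SE 0.03, edgeR's adjusted p = 3.95e-05), and *Slc1a2* was at 160 ± 3.87 CPM in control and 153 ± 7.42 CPM in stress (SD, n = 4). Of 7 genes of the oligodendrocyte lineage 2 were lower, *Pdgfra* (-0.31, SE 0.05, edgeR's adjusted p = 0.000187) and *Olig1* (-0.26, SE 0.04, edgeR's adjusted p = 0.000149), and the sums were 142 to 154 CPM and 131 to 141 CPM. *Olig2*, at 26.7 ± 0.23 and 25.5 ± 0.69 CPM (SD, n = 4), was not called. The part of these lineages in the members' values was not tested.

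Markers of cells outside the neural lineage were present in all brains, and none of the genes on any list was at 0 in every brain. Of 12 genes of endothelium and pericytes, 5 were lower, led by the receptor genes *Flt1* (-0.41, SE 0.06, edgeR's adjusted p = 2.19e-05) and *Kdr* (-0.29, SE 0.04, edgeR's adjusted p = 8.35e-05), with sums of 288 to 319 CPM and 275 to 290 CPM. Their most abundant genes were the pericyte gene *Rgs5*, at 77.0 ± 3.65 and 75.7 ± 2.85 CPM, and the tight junction gene *Cldn5*, at 39.5 ± 0.75 and 36.1 ± 1.02 CPM (SD, n = 4). Of 9 microglial genes 0 were called by edgeR, and the sums were 38.8 to 41.9 CPM and 35.9 to 41.3 CPM. *Csf1r* and *Cx3cr1*, the most abundant, were at 10.3 ± 0.86 and 10.8 ± 1.45 CPM and at 6.93 ± 0.64 and 6.89 ± 0.69 CPM (SD, n = 4). In the meningeal list mentioned with *Vim*, the collagen genes *Col1a1* (1.59, SE 0.39, edgeR's adjusted p = 0.00732) and *Col3a1* (1.04, SE 0.23, edgeR's adjusted p = 0.00249) were higher and *Pdgfra*, which is also on the oligodendrocyte list, lower. DESeq2 called neither collagen gene. *Col1a2*, its most abundant gene after *Pdgfra*, was at 7.09 ± 2.18 and 12.3 ± 6.44 CPM (SD, n = 4). Of 5 ependymal and choroid plexus genes tested of 8, 1 was higher, *Ttr*, at 2.65 ± 2.93 and 10.6 ± 13.2 CPM (SD, n = 4, edgeR's adjusted p = 0.00717, DESeq2's adjusted p = 0.412), and *Foxj1* was at 14.4 ± 1.18 and 13.3 ± 2.35 CPM. The sums of that list were 16.0 to 25.3 CPM in control and 13.4 to 48.2 CPM in stress. The sum was highest in F34 and lowest in M29, and *Nes* was at 227 and 223 CPM in these brains. The part of these cells in the members' values was not tested.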

How the data were processed

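Poly(A) RNA of 8 fetal brains, 4 control and 4 stress with 2 females and 2 males each, was sequenced by the authors as 1 library per brain, in paired reads. Of the animals in the study, these 8 were analysed here. The authors used Trim Galore for trimming, TopHat2 2.1.1 for alignment to mm10 and featureCounts 1.6.3 for counting of read pairs over exons of GENCODE vM20 genes. The options given for the counting name no strand. They deposited the raw counts without normalization. The study's model also held batch, which its sample sheet does not name for these libraries. Group and sex came from the sample labels. Of 54752 gene identifiers, 54723 were matched to a symbol.

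Genes were kept by edgeR's filterByExpr by condition (minimum count 10), scaled by TMM and fitted with glmQLFit and glmQLFTest with sex and condition (R 4.3.3, edgeR 4.0.16, limma 3.58.1), with Benjamini-Hochberg adjustment over all genes tested and a threshold of 0.05. The SE of a Log2FC was taken as its absolute value over the root of F. CPM uses the TMM-scaled total, and log2 CPM a prior count of 2. Exact permutation tests ran over the 8 brains, with 0.0286 as the smallest two-sided p. DESeq2 1.42.0 was an alternative, with other size factors, no filter, no sex covariate, robust spread, sex chromosomes and mitochondrial genes left out, and each brain left out. The members and gene lists were chosen with earlier results of these data known. Named besides the members were the genes of each list with the largest called changes (up to 2 in each direction), the 2 most abundant of lists of other cell types, the 2 genes most like each member, genes whose exons overlap a member, and *Xist* and *Ddx3y*. On simulated counts of 8 brains (17677 genes, 100 changed at each size), edgeR recovered 63% of genes at a Log2FC of 0.3 and 79% at 0.6, with 4 false calls. For the interaction (17686 genes) it recovered 26% and 58%, with 10 false calls. Both planted sizes are larger than any member's change over the 8 brains (at most 0.22, *Emx2*) or interaction. The recovery of changes as small as those of the members was not measured.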

Additional observations from a re-analysis of the deposited data

Results flagged for a closer look

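*Fabp7* was noted because its values lay on opposite sides of control in the females and in the males, while no test of it was passed. In the females, both stressed brains, at 526 and 531 CPM, were below both control brains, at 559 and 541 CPM. In the males, both stressed brains, at 581 and 567 CPM, were above both control brains, at 560 and 567 CPM, but M29 exceeded the control M31 by less than 1 CPM. The Log2FC was -0.06 (SE 0.04, edgeR's adjusted p = 0.454) in females and 0.03 (SE 0.03, edgeR's adjusted p = 0.729) in males. The interaction, females minus males, was -0.085 (SE 0.05) and did not pass edgeR's test (adjusted p = 0.823). No member had a brain that stood apart from its group of 4 by Dixon's criterion.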

How the results depend on the processing

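The number of members called higher was 5, and 4 to 5 under every alternative run. Members called lower were 0, and 1 (*Ptprz1*) with no filter on low counts, with 0 to 1 in the fits that left out 1 brain. Members called in the males alone were 6, but 0 with DESeq2 and 0 with no filter. Over all genes, 1160 were called higher and 1298 lower, DESeq2 called 748 and 911, and leaving out 1 brain gave 736 to 1057 higher and 854 to 1308 lower, with the lowest counts without stress M29. Of 150 Log2FC values of the members under the alternatives, 139 kept their direction and side of the threshold. The call was lost in 7 (6 of *Nes*, 1 of *Sox2*) and gained in 2 (*Ptprz1*). The sign turned in 2, to 0.0056 for *Hopx* without stress F34 and to 0.00036 for *Fabp7* without control F36, and over all fits that left out 1 brain the values ran from -0.19 to 0.0056 and from -0.031 to 0.00036. The cause was not tested. *Nes* lost its call with DESeq2, with no sex covariate (adjusted p = 0.0630), with robust spread (0.0861) and without F34, M29 or F37. The median Log2FC of all genes was at most 0.0037 under every setting. No paired analysis was possible because the groups share no animal numbers. The errors cover littermates of 1 litter per group, and *Hopx*, with 265 to 369 counts per brain, had the largest SE of the members, 0.08.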

Other observations

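Of 8 genes of red blood cells, 2 were higher and 1 lower in stress. The genes of the embryonic globin chains *Hba-x* (Log2FC 1.09, SE 0.15, edgeR's adjusted p = 2.21e-05) and *Hbb-y* (0.84, SE 0.13, edgeR's adjusted p = 0.000120) rose without overlap of the groups, from 1.73 ± 0.36 to 3.71 ± 0.56 CPM and from 3.36 ± 0.82 to 6.00 ± 0.77 CPM (SD, n = 4). The adult chain gene *Hbb-bs*, the most abundant of the list, fell by 0.14 on the log2 scale (SE 0.04, edgeR's adjusted p = 0.00976), and *Hba-a1* was at 89.2 ± 6.59 and 86.6 ± 2.84 CPM (SD, n = 4). The adult globin genes have near-identical copies, so their counts are uncertain. The summed level of the list was 364 to 412 CPM in control and 370 to 384 CPM in stress. The embryonic chains belong to the first red cells of the embryo, and both litters were collected at E15.5 by their labels. The part of litter or of stage in the members' values was not tested.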
